A study of Mus musculus with 4 samples.

Results

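The genes described here encode the proteins that bind the mRNA cap and the proteins that keep them from starting translation. They are Eif4e, Eif4e2, Eif4ebp1, Eif4ebp2, Eif4enif1, Gigyf1, Gigyf2 and Larp1, chosen by symbol, and all 8 were found among the 32592 genes of the table. All 8 passed the filter on low counts that left 14890 genes for testing. They were measured by poly(A) RNA sequencing in feeder-free CCE mouse embryonic stem cells, a line of 129/Sv origin kept in medium with serum and leukemia inhibitory factor. The 2 libraries labelled knockdown came from cells infected with shRNAs against eIF4A2 (sheIF4A2-2 or sheIF4A2-3), and the 2 libraries labelled control from cells infected with control shRNAs (shLuc or shEV). All cells were selected for 3 days in 1 µg/mL puromycin and collected on day 4.5. The labels do not say which hairpin each sample received, nor whether each was a culture of its own. The p-values therefore rest on the spread between these samples, and that spread may be technical alone.

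The protein eIF4E holds the cap of an mRNA and recruits the scaffold eIF4G, which brings in the helicase eIF4A and the ribosome. The 4E-binding proteins 4E-BP1 (Eif4ebp1) and 4E-BP2 (Eif4ebp2) occupy the surface that eIF4G needs, and the kinase complex mTORC1 releases them by phosphorylation. The homolog 4EHP (Eif4e2) binds the cap without building this complex, and represses mRNAs together with GIGYF1 or GIGYF2. The eIF4E transporter 4E-T (Eif4enif1) carries eIF4E to the nucleus and to processing bodies, and LARP1 binds the cap of mRNAs that begin with a terminal oligopyrimidine (TOP) tract, such as those of ribosomal proteins.

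Depth ranged from 4604200 to 13681765 recovered reads a library, lowest in control 2, and each of the 8 genes had between 257 and 6476 reads in every library. Eif4a2, the gene targeted by the hairpins, was at 753 and 814 normalized counts in knockdown-labelled libraries, against 531 and 379 in control-labelled libraries (log2 change 0.80, limma adjusted p = 0.014). The targeted transcript goes against its label, so each direction below compares the labels and follows no measured loss of Eif4a2. The marker genes of embryonic stem cells were expressed in all libraries. Their summed level, over 8 genes, was 8315 and 7998 in knockdown-labelled libraries and 11250 and 10563 in control-labelled libraries. In limma 4 of the 8 fell (Sox2, Zfp42, Esrrb and Klf4), where 12.4% of all genes tested fell and 10.5% rose. Pou5f1, Nanog, Tdgf1 and Dppa5a did not pass. The summed level of 7 fibroblast markers was 39.7 and 40.1 in knockdown-labelled libraries and 24.3 and 19.7 in control-labelled libraries. Of these markers Dcn was at 0 reads throughout and 2 of 4 tested rose. The summed level of 3 neural markers was 44.8 and 46.8 in knockdown-labelled libraries and 66.7 and 95.9 in control-labelled libraries. Of these, 1 of 2 tested fell (Pax6, log2 change -0.85, limma adjusted p = 0.0159). Tubb3, which held most of that sum, did not pass (log2 change -0.74, limma adjusted p = 0.0515). In the lists for primitive endoderm, primitive streak and trophectoderm no gene tested passed in limma. In bulk RNA, fewer cells of a type and less RNA per cell cannot be told apart, and the part of these markers in the results below was not tested.

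Both cap-binding proteins and the repressor 4E-BP1 had lower transcript levels in knockdown-labelled libraries, while GIGYF1 had a higher one. Eif4e fell 1.34-fold, Eif4e2 fell 1.82-fold and Eif4ebp1 fell 1.54-fold, and Gigyf1 rose 1.44-fold (limma, adjusted p below 0.05 over all genes tested). Eif4ebp2, Eif4enif1, Gigyf2 and Larp1 did not pass. Thus 3 of 8 genes fell and 1 rose. Among all genes tested by limma, 12.4% fell and 10.5% rose, 23.0% in either direction. With edgeR 3 fell and 1 rose as well, where 13.1% of all genes fell and 12.0% rose (25.1% in either direction). DESeq2 called Eif4e2 and Eif4ebp1 as lower and Gigyf1 as higher, where 8.63% of 14312 genes fell and 6.77% rose (15.4% in either direction). The median log2 change was -0.21 over the 8 genes and -0.01 over all 14890 genes tested. Knockdown-labelled and control-labelled values were apart, with no overlap, for 6 of the 8 genes and for 66.8% of all genes tested.

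**Figure D1:**
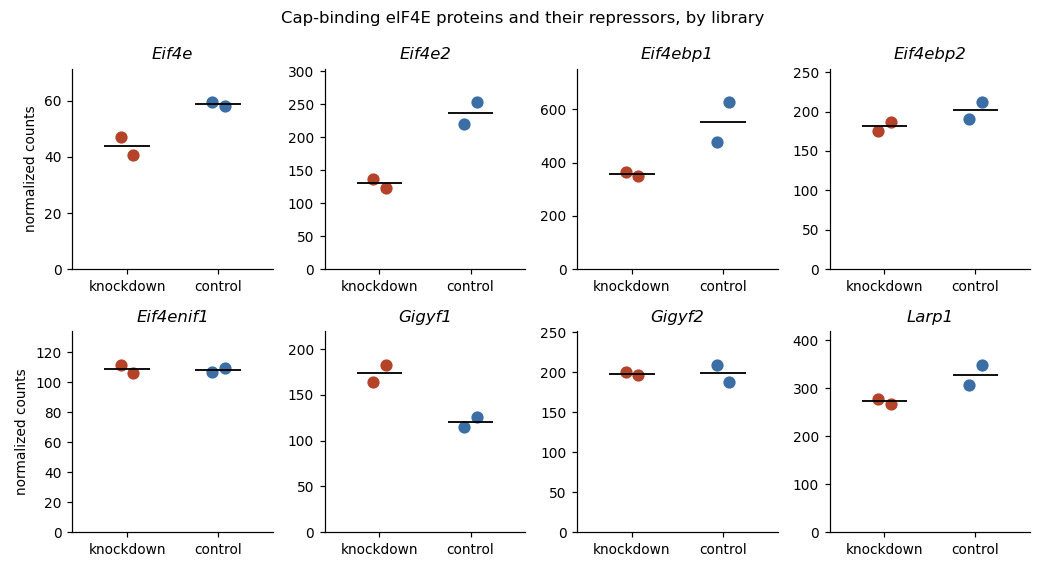
Normalized counts (vertical axes, each from 0) of the 8 genes in the 2 libraries labelled knockdown (left, red) and the 2 labelled control (right, blue); points are libraries and lines are group means. The groups are apart for 6 genes, and overlap for Eif4enif1 and Gigyf2.

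Eif4e, the cap-binding subunit, lies on chromosome 3 (138526179 to 138559696, plus strand, GRCm38). It was at 46.9 and 40.8 normalized counts in knockdown-labelled libraries and at 59.5 and 58.2 in control-labelled libraries. Both values with the knockdown label were below both with the control label, whose libraries differed little from each other. Means were 43.8 ± 4.3 with the knockdown label and 58.8 ± 0.928 with the control label (SD, n = 2 each), and the log2 change was -0.42 (SE 0.11, 95% interval -0.67 to -0.17, limma adjusted p = 0.0337). The call was not stable to the processing. Eif4e did not pass with library size as the only scaling (adjusted p = 0.0912), with DESeq2 (adjusted p = 0.0914) or after correction for GC content (log2 change -0.29, adjusted p = 0.0886). Without knockdown 1 or knockdown 2 it did not pass either (limma adjusted p = 0.11 and 0.392).

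Eif4e has an annotated copy that also held reads. Gm7327, a processed pseudogene, aligned to Eif4e transcripts with 98.6% identity over 654 aligned bases, which is about its whole length. It was listed with 1034 and 1146 reads in knockdown-labelled libraries and 1708 and 577 in control-labelled libraries. Eif4e itself had 528 and 524 reads in knockdown-labelled libraries and 808 and 257 in control-labelled libraries. The pseudogene thus held between 1.96 and 2.25 times the reads of the gene in each library. Eif4e has 6008 exon bases, and reads from the stretch that the copy resembles cannot be assigned with certainty, so the level of Eif4e is uncertain. Gm7327 by itself fell, with 91.8 and 89.2 normalized counts in knockdown-labelled libraries and 126 and 131 in control-labelled libraries (log2 change -0.50, limma adjusted p = 0.00956). The sum of the pair was at 139 and 130.04 normalized counts in knockdown-labelled libraries, against 185 and 189 in control-labelled libraries (log2 change -0.47, SE 0.08, limma adjusted p = 0.0103). The gene and the copy both fell, so the direction of their sum was fixed in advance. Since reads cannot be assigned with certainty between them, the copy and the sum are not separate support for the change of Eif4e. The sum was chosen after the data were seen.

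Promoters are printed for the genes that fell or rose and have an entry in RefSeq, since these moved between the groups and Eif4e is known as a target of the transcription factor MYC. Each runs from 250 bases before to 50 bases after a RefSeq start site (GRCm38.p6), 5′ to 3′ along the gene. Capitals mark the hexamer CACGTG, the E-box that MYC and MAX bind, which reads the same on both strands.
Eif4e, chr3:138527018-138527317, plus strand: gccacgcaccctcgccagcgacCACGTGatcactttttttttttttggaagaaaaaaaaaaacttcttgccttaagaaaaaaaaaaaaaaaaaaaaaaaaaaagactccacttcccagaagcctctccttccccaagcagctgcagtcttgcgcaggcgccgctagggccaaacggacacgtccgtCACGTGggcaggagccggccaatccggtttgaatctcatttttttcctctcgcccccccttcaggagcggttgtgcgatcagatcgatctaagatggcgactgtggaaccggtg
Eif4e2, chr1:87213664-87213963, plus strand: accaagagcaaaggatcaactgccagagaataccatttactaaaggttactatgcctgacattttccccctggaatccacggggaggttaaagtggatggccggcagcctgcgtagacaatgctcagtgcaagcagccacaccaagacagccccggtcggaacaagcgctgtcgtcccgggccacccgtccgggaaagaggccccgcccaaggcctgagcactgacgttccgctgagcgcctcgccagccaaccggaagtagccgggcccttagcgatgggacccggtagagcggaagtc
Gigyf1, chr5:137518630-137518929, plus strand: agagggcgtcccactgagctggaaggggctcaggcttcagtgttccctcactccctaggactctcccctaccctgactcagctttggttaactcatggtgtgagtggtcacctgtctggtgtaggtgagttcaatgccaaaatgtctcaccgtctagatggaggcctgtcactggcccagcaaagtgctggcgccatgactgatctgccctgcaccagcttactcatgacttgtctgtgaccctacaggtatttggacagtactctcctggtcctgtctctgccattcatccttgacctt
The Eif4e promoter shown holds the hexamer at 2 places, whose first bases lie 228 and 64 bases before the start site. It belongs to the second of 2 RefSeq start sites of the gene, 1089 bases from the gene's first base in GENCODE. The promoter of the other site, 12 bases from that base, holds none and is not printed. For Eif4e2 the promoter nearest to the gene's first base was printed, so the choice for Eif4e followed another rule. The shares below therefore do not measure how unusual its 2 matches are. A hexamer was found in 7.15% of the 32851 RefSeq promoters of this length that were counted, and 2 or more in 0.594%. The promoters counted did not come from every chromosome. Of the other genes with an entry, Gigyf2 held 1 and Eif4e2, Eif4ebp2, Eif4enif1, Gigyf1 and Larp1 held none. The sequence TGATGNAA, searched on both strands as a form of the composite site of ATF4, was in none of the 13 promoters of the 7 genes with an entry. It was in 3.97% of the promoters counted. Eif4ebp1 had no entry, so neither sequence was searched for in its promoter. A match is a description of these letters in these windows.

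Of the factors that act on this hexamer, Myc was at 69.9 and 68.2 normalized counts in knockdown-labelled libraries and at 93.2 and 136 in control-labelled libraries. Myc fell (log2 change -0.70, SE 0.16, limma adjusted p = 0.0268), with the 2 controls far from each other. Its partner Max (log2 change 0.17, adjusted p = 0.19) and the paralog Mycn (log2 change 0.05, adjusted p = 0.744), which stood at a higher normalized count than Myc in every library, did not pass in limma. With library size as the only scaling 1 of these 3 genes rose, where 2153 of the 14890 genes did. The number that rose also changed without control 2, as it did over all genes.

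Eif4e2 encodes 4EHP, the cap-binding homolog that represses. It lies on chromosome 1 (87213914 to 87240488, plus strand) and had the largest change of the 8 genes in limma. Its level was 136 and 124 normalized counts in knockdown-labelled libraries and 221 and 253 in control-labelled libraries. The groups were well apart, with means of 130.02 ± 9.11 for the knockdown label and 237 ± 23 for the control label (SD, n = 2 each). The log2 change was -0.86 (SE 0.10, 95% interval -1.09 to -0.62, limma adjusted p = 0.00404), a larger absolute change than that of 92.3% of all genes tested. Eif4e2 passed in each alternative run, with log2 changes between -0.96 and -0.68. The authors' deposited table gives Eif4e2 a log2 fold change of -0.86 and an adjusted p of 5.38e-06.

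Eif4ebp1, the gene of 4E-BP1, had the highest level per length among the 8 genes and fell in knockdown-labelled libraries. It lies on chromosome 8 (27260329 to 27276674, plus strand). It was at 366 and 351 normalized counts in knockdown-labelled libraries, against 477 and 627 in control-labelled libraries. Means were 359 ± 10.8 for the knockdown label and 552 ± 107 for the control label (SD, n = 2 each), so the controls were far apart, yet both lay above both knockdown libraries. The log2 change was -0.61 (SE 0.13, 95% interval -0.91 to -0.30, limma adjusted p = 0.02). It was -0.81 without control 1 and -0.41 without control 2. Eif4ebp1 did not pass without knockdown 2 (limma adjusted p = 0.0749) or without a variance trend (adjusted p = 0.074). Its processed pseudogene Gm14143 held at most 1 read in a library.

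Eif4ebp1 is a known target of ATF4, the transcription factor of the amino acid response. Atf4 was at 256 and 237 normalized counts in knockdown-labelled libraries and at 399 and 534 in control-labelled libraries. It fell 1.89-fold (log2 change -0.90, SE 0.14, limma adjusted p = 0.00781), and as for Eif4ebp1 control 2 stood highest. In a list of ATF4 and its targets, 14 of 19 genes tested fell and 0 rose in limma, and in edgeR 14 fell and 0 rose (median log2 change -0.82 in limma). Among all genes 12.4% fell in limma and 13.1% in edgeR. With library size as the only scaling 13 of the list fell, where 996 of the 14890 genes did. With 1 library left out the number that fell varied, as it did over all genes. Examples are the amino acid enzymes Asns, at 117 ± 11.7 with the knockdown label and 282 ± 9.8 with the control label (SD, n = 2 each), and Cth, at 30.8 ± 2.2 with the knockdown label and 80.7 ± 3.35 with the control label. Their log2 changes were -1.27 for Asns and -1.36 for Cth. The change of Eif4ebp1 was smaller than the median of that list.

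Eif4ebp2, which encodes the paralog 4E-BP2 (chromosome 10, 61428491 to 61452661, minus strand), did not pass. It was at 176 and 187 normalized counts in knockdown-labelled libraries, against 191 and 212 in control-labelled libraries. The groups lay close, the log2 change was -0.15 (SE 0.09, 95% interval -0.36 to 0.06), and the limma adjusted p was 0.257. The interval reaches down to 0.781 times the control level and does not show that the gene was the same in both groups. The difference in response between Eif4ebp1 and Eif4ebp2 was not tested, and their intervals overlap. The log2 change of Eif4ebp2 was -0.23 without control 1 and -0.07 without control 2. The third paralog, Eif4ebp3, and the oocyte cap-binding protein gene Eif4e1b had at most 3 reads in any library and were not tested.

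Of the partners of 4EHP, Gigyf1 rose and Gigyf2 did not pass. Gigyf1 (chromosome 5, 137518548 to 137527935, plus strand) was at 165 and 183 normalized counts in knockdown-labelled libraries and at 115 and 126 in control-labelled libraries. All values with the knockdown label were above those with the control label, with means of 174 ± 12.9 for the knockdown label and 120.2 ± 7.88 for the control label (SD, n = 2 each). The log2 change was 0.53 (SE 0.09, 95% interval 0.31 to 0.75, limma adjusted p = 0.0118). Gigyf1 did not pass without knockdown 2 (limma adjusted p = 0.14) or without a variance trend (adjusted p = 0.0544).

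Gigyf2 lies on chromosome 1 (87326998 to 87450796, plus strand), 86.5 kb beyond the end of Eif4e2. It was at 200.03 and 196 normalized counts in knockdown-labelled libraries, against 209 and 188 in control-labelled libraries, so that the knockdown values lay between the controls. Its log2 change was -0.0004 (SE 0.09, 95% interval -0.20 to 0.20, limma adjusted p = 0.998), a range of levels from 0.869 to 1.15 times the control level. Gigyf2 shares exon bases with Kcnj13 on the opposite strand, but Kcnj13 had at most 7 reads in a library.

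The changes of Gigyf1 and Eif4e stand beside a trend over all genes. Over the 14890 genes, which share these 4 libraries and are not independent, log2 change and GC content of a gene's transcripts had a Spearman's rho of 0.274. Transcripts of Gigyf1 had a GC content of 58.7%, above 91.9% of the genes tested, and those of Eif4e 43.1%, above 11.6%. The other 6 genes had between 47.5% and 53.8%. After correction for GC content the log2 change of Gigyf1 was 0.34 (limma adjusted p = 0.0354), that of Eif4e2 -0.83 (adjusted p = 0.00343) and that of Eif4ebp1 -0.57 (adjusted p = 0.024).

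**Figure D2:**
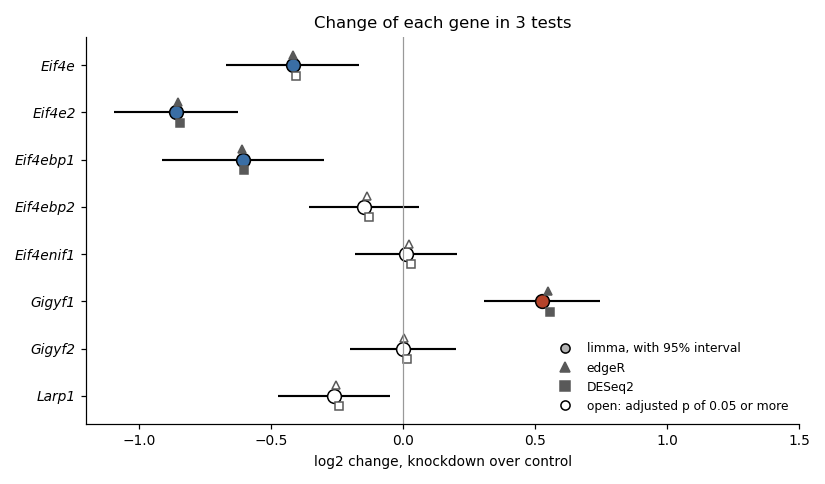
Log2 change of each gene, knockdown over control (horizontal axis), by limma with its 95% interval (circles), edgeR (triangles) and DESeq2 (squares); filled symbols have an adjusted p below 0.05. Eif4e2, Eif4ebp1 and Gigyf1 were called by all 3 tools, and Eif4e by limma and edgeR.

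Eif4enif1, the gene of 4E-T (chromosome 11, 3202392 to 3244588, plus strand), was at nearly the same level in all libraries. It was at 111 and 106 normalized counts in knockdown-labelled libraries and at 107 and 109 in control-labelled libraries. The groups overlapped, with a log2 change of 0.01 (SE 0.08, 95% interval -0.18 to 0.20, limma adjusted p = 0.937). The gene Drg1 overlaps it on the opposite strand in the annotation, with no exon base in common.

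Larp1, the gene of the TOP-binding repressor (chromosome 11, 58009064 to 58062034, plus strand) did not pass. It was at 278 and 268 normalized counts in knockdown-labelled libraries, against 308 and 349 in control-labelled libraries. The groups did not overlap, and the means were 273 ± 7.46 for the knockdown label and 328 ± 29.2 for the control label (SD, n = 2 each). The log2 change was -0.26 (SE 0.09, 95% interval -0.47 to -0.05), and the limma adjusted p of 0.0744 did not pass. It passed after correction for GC content (log2 change -0.32, limma adjusted p = 0.0455). The log2 change was -0.35 without control 1 and -0.17 without control 2. A processed pseudogene, Gm16425, with 93.1% identity over 3063 bases, held 623 and 690 reads in knockdown-labelled libraries and 835 and 282 in control-labelled libraries. With its reads added, the log2 change of Larp1 was -0.25 (limma adjusted p = 0.0759).

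**Figure D3:**
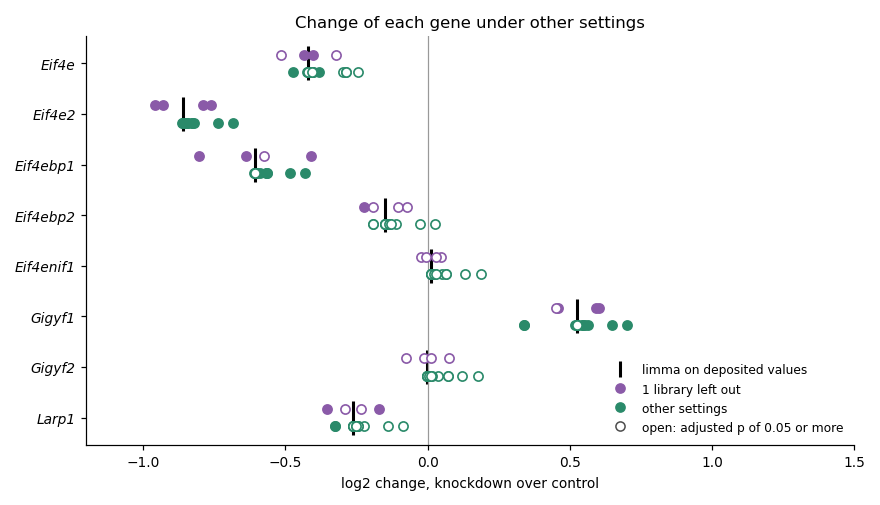
Log2 change of each gene (horizontal axis) by limma on the deposited values (black bars), with 1 library left out (upper, purple) and under the other settings (lower, green); open circles have an adjusted p of 0.05 or more. Eif4e2 is filled throughout, between -0.96 and -0.68, whereas Eif4e has filled and open circles.

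Levels of different genes were compared per kb of annotated exons. In knockdown-labelled libraries, Eif4ebp1 was highest at 163 normalized counts per kb, followed by Larp1 at 40.0, Gigyf1 at 31.6, Eif4ebp2 at 31.4, Eif4e2 at 17.3, Eif4enif1 at 17.1, Gigyf2 at 13.9 and Eif4e at 7.3. In control-labelled libraries the order per kb was Eif4ebp1 at 251, Larp1 at 48.1, Eif4ebp2 at 34.8, Eif4e2 at 31.6, Gigyf1 at 21.8, Eif4enif1 at 16.9, Gigyf2 at 14 and Eif4e at 9.79. The libraries of Gigyf1 and Eif4ebp2 overlapped in the knockdown group, as did those of Eif4e2 and Eif4enif1. In the control group those of Eif4ebp2 and Eif4e2 overlapped. Eif4e2 thus stood above Gigyf1 in the controls and below it in knockdown-labelled libraries. The place of Eif4e is uncertain. With the reads of Gm7327 added it was at 22.4 normalized counts per kb in knockdown-labelled libraries, above Eif4e2, and at 31.1 in control-labelled libraries, where its values lay between the values of Eif4e2.

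Ratios between these genes within a library do not depend on the scaling between libraries. They were not corrected for GC content, which differed between the genes (43.1% for Eif4e and 53.2% for Eif4ebp2). An exact permutation test of 2 libraries against 2 cannot give a two-sided p below 0.333. Per kb, Eif4e2 stood at 2.33 and 2.43 times Eif4e in knockdown-labelled libraries and at 2.97 and 3.49 times in control-labelled libraries (log2 difference -0.44, exact permutation p = 0.333). Gigyf2 stood at 0.773 and 0.837 times Eif4e2 in knockdown-labelled libraries and at 0.5 and 0.391 times in control-labelled libraries. This difference of 0.86 on the log2 scale was the largest of the 5 ratios computed (exact permutation p = 0.333).

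The log2 differences in the ratios of repressors to Eif4e were not all of the same sign, and were not tested against each other. Eif4enif1 stood at 2.24 and 2.45 times Eif4e in knockdown-labelled libraries and at 1.69 and 1.77 times in control-labelled libraries (log2 difference 0.44, exact permutation p = 0.333). Eif4ebp2 stood at 3.9 and 4.76 times Eif4e in knockdown-labelled libraries and at 3.33 and 3.79 times in control-labelled libraries (log2 difference 0.28, exact permutation p = 0.333). That difference was 0.13 without knockdown 2, 0.42 without knockdown 1 and 0.18 without control 1. The ratio of Eif4ebp1 to Eif4e overlapped between the groups, at 21.4 and 23.5 in knockdown-labelled libraries and 21.9 and 29.5 in control-labelled libraries (log2 difference -0.18, exact permutation p = 0.667). This difference was -0.40 without control 1, -0.11 without knockdown 1 and 0.03 without control 2. With the reads of Gm7327 added to Eif4e, all 4 ratios to Eif4e were lower in every library, and the log2 differences kept their signs. Eif4e2 then stood at 0.789 and 0.762 times Eif4e in knockdown-labelled libraries and at 0.955 and 1.08 times in control-labelled libraries (log2 difference -0.39). Eif4enif1 stood at 0.758 and 0.77 times in knockdown-labelled libraries and at 0.543 and 0.546 times in control-labelled libraries (log2 difference 0.49).

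**Figure D4:**
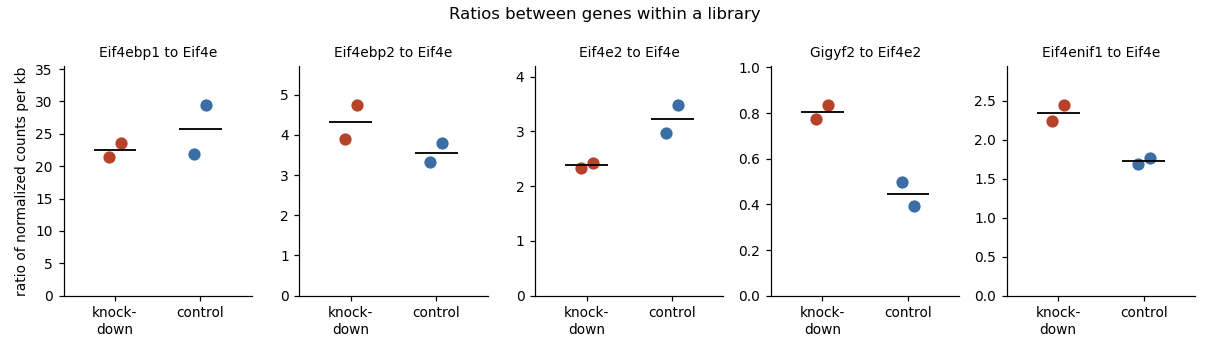
Ratio of normalized counts per kb between genes of the same library (vertical axes, each from 0), in knockdown-labelled libraries (left, red) and control (right, blue); lines are group means. The groups are apart for each ratio but that of Eif4ebp1 to Eif4e, where the lower control lies between the 2 knockdown values.

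Profiles most like those of the 4 called genes were found by the distance between centred log2 values over the 4 libraries, among 9486 genes with a mean of at least 10 normalized counts. The nearest to Eif4e were Ppm1j, Bcs1l and Ccdc181, at distances of 0.027 to 0.032 on the log2 scale. Those nearest to Eif4e2 were B3galnt1, Smyd4 and Gap43 (0.016 to 0.024), and those nearest to Eif4ebp1 were Usp1, Imp4 and Ubr4 (0.036 to 0.038). Pkd1, Dus3l and Ggnbp1 were nearest to Gigyf1 (0.024 to 0.029). These distances rest on 4 libraries only.

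Of 7 genes of eIF4E partners and kinases, 2 fell and 0 rose in limma and in edgeR. With library size as the only scaling 1 fell and 1 rose, where 996 of the 14890 genes fell and 2153 rose. In limma the 28.6% called are near the 23.0% of all genes. These counts changed with 1 library left out, as did those over all genes. Eif4g1, the scaffold of the initiation complex, was at 763 and 754 normalized counts in knockdown-labelled libraries and at 899 and 1118 in control-labelled libraries (log2 change -0.40, limma adjusted p = 0.0452). Cyfip2, whose paralog CYFIP1 binds eIF4E with the fragile X protein, was at 30.5 and 32.2 in knockdown-labelled libraries and at 63.2 and 46.6 in control-labelled libraries (log2 change -0.77, limma adjusted p = 0.0159). The eIF4E kinase gene Mknk2 (log2 change 0.40, adjusted p = 0.0832) and Angel1 (0.18, adjusted p = 0.238) did not pass.

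Of 10 genes of partners of 4E-T, 4EHP and the GIGYF proteins, 2 rose and 2 fell in limma, where 10.5% of all genes rose and 12.4% fell. Both counts depended on which library was left out, as did those over all genes. Tnrc6b, a scaffold of microRNA silencing that GIGYF proteins bind, was at 161 and 166 normalized counts in knockdown-labelled libraries, against 102 and 109 in control-labelled libraries (log2 change 0.63, limma adjusted p = 0.00564). Zfp36, the AU-rich element binding protein that recruits 4EHP with GIGYF2, was at 53 and 51.8 in knockdown-labelled libraries and at 32.6 and 22.2 in control-labelled libraries (log2 change 0.94, adjusted p = 0.0136). The processing body genes Ddx6 (log2 change -0.61, adjusted p = 0.00715) and Lsm14a (log2 change -0.29, adjusted p = 0.0381), whose proteins bind 4E-T, fell. Zfp598, the ribosome collision sensor that works with GIGYF2 and 4EHP, did not pass (log2 change 0.11, adjusted p = 0.336).

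Among 16 genes of mTORC1 and its regulators, which act on the 4E-BPs and on LARP1, 2 fell and 0 rose in limma. In edgeR 1 rose, where 12.0% of all genes did. When libraries were scaled by size alone 2 rose, where 2153 of the 14890 genes did. The 12.5% that fell are near the 12.4% of all genes that fell in limma. Leaving out 1 library changed these counts, as it changed those over all genes. Lamtor1 fell, with 30.9 and 28.5 normalized counts in knockdown-labelled libraries and 47.8 and 54.8 in control-labelled libraries (log2 change -0.77, limma adjusted p = 0.00809). Rraga fell too (log2 change -0.60, adjusted p = 0.0086). Both belong to the lysosomal platform that recruits mTORC1 when amino acids are present. The arginine sensor gene Castor1 (log2 change 0.40, adjusted p = 0.0509) and Mlst8, a subunit of the complex (0.37, adjusted p = 0.0857), did not pass. The kinase gene Mtor itself did not pass (-0.23, adjusted p = 0.213), nor did Rptor (-0.19, adjusted p = 0.35).

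Most genes listed here for TOP mRNAs, which LARP1 binds, did not pass. The ribosomal protein genes were picked by symbol, paralogs such as Rpl3l, Rpl10l, Rpl39l and Rps27l included, and their TOP tracts were not checked. Of 80 ribosomal protein genes, 2 rose and 4 fell in limma (median log2 change -0.07), and 74 did not pass. That is 7.5% called, against 23.0% of all genes. The counts depended on the scaling and on single libraries, as did those over all genes. With library size only, 4 rose and 1 fell, where 2153 of the 14890 genes rose and 996 fell. Rplp1, at 177 ± 6.63 with the knockdown label and 347 ± 5.61 with the control label (SD, n = 2 each), had the smallest p, with a log2 change of -0.97 (limma adjusted p = 0.00256), and Rpl15 rose (log2 change 0.40, adjusted p = 0.0164). Ribosomal protein genes have many pseudogene copies, so their reads are uncertain. Of 16 other TOP genes, 3 fell and 0 rose in limma and in edgeR (median log2 change -0.13). Over all genes 12.4% fell in limma and 13.1% in edgeR. The 18.75% of this list called in limma are near the 23.0% of all genes called in either direction. The genes that fell were Npm1 (log2 change -0.44), Tpt1 (-0.34) and Eef1b2 (-0.31), with limma adjusted p between 0.014 and 0.0407. The number of these 16 genes that fell depended on which library was left out, as it did over all genes.

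**Figure D5:**
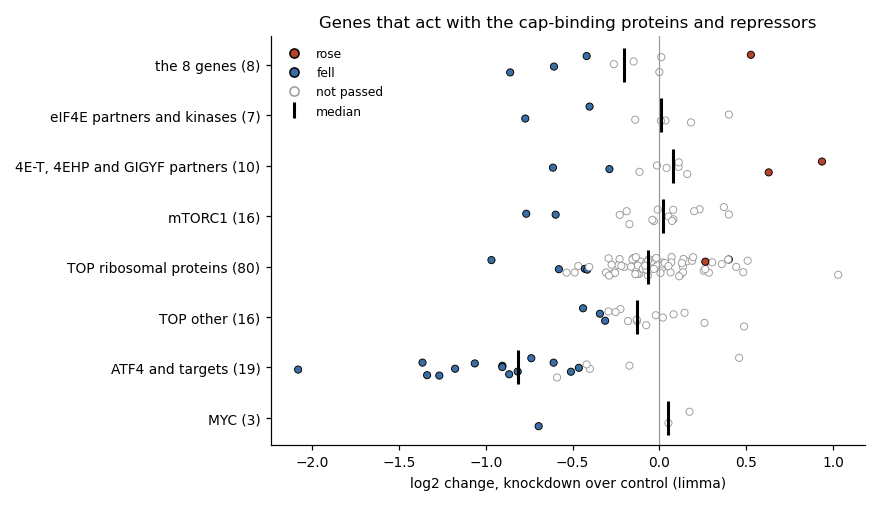
Log2 change by limma (horizontal axis) of the 8 genes and of the genes that act with them, by list, with the number tested in brackets; filled points rose (red) or fell (blue), and bars are medians. The medians of the lists lie between -0.21 and 0.08, apart from ATF4 and its targets at -0.82.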

How the data were processed

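Each value of the deposited signal is a gene's read count scaled by the authors to a library's effective size (normalized counts); 100% were whole multiples of what 1 read is worth, within 0.001. The submitters' processing notes name, without roles, Bowtie2 (2.3.4.3), SAMtools (1.9), HTSeq (0.11.2), edgeR (3.26.8) and build mm9; annotation and strand setting: not given in the sources used here. Per the file headers, the authors' comparison holds a log2 fold change, a score (likelihood ratio) and a raw and adjusted p-value. Every per-sample column was used and no library was dropped or imputed.

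Groups came from the sample labels. The main test was limma 3.58.1 (R 4.3.3) with a variance trend and no replicate block, fitted to log2(signal + 1), a pseudocount that understates the change of low genes; genes passing filterByExpr of edgeR 4.0.16 on recovered reads were tested, two-sided, with Benjamini-Hochberg adjustment over all of them and a threshold of 0.05. Fold changes are ratios of group means. Alternatives were edgeR's quasi-likelihood test and DESeq2 1.42.0 on recovered reads, other scalings, pseudocounts and filters, GC correction and leaving out libraries. The limma fit was also run on simulated counts in which a gene had the same spread in both groups. It was therefore not tried on groups of unequal spread. IDs matched GENCODE M21 for 32590 of 32592 genes, which gave GRCm38 coordinates, exon lengths and GC content; none was converted from mm9. Pseudogene copies had at least 90% identity over 200 bases by blastn 2.17.0. Promoters are from RefSeq. Replicates differed beyond sampling noise (chi-square per degree of freedom 1.95 between knockdown libraries and 12.8 between controls). The 8 genes and the lists were chosen with earlier results of these data known. Named genes were the 8, Eif4a2, Atf4, up to 4 genes per list with the smallest p and the 3 nearest profiles of each called gene; the pseudogenes, Zfp598, Mtor and Rptor were named after their values were seen.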

Additional observations from a re-analysis of the deposited data

How the results depend on the processing

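Across the alternatives, the directions of Eif4e, Eif4e2, Eif4ebp1, Gigyf1 and Larp1 were kept. Log2 changes that lost their call were those of Eif4e with library size only (-0.30), with the upper quartile of the values above 0 in each library (-0.24), without a variance trend (-0.42), with GC correction (-0.29), with GC correction and a replicate block (-0.29) and with DESeq2 (-0.41), and, without a variance trend, those of Eif4ebp1 (-0.61) and Gigyf1 (0.53). Larp1 gained a call with GC correction and with GC correction and a replicate block (-0.32 in both). Genes near 0 changed sign: Eif4ebp2 with the upper quartile (0.028), and Gigyf2 with library size only (0.12), the upper quartile (0.18), the upper quartile over genes with a read in any library (0.038, added after seeing the data), median of ratios (0.016), GC correction (0.070), GC correction and a replicate block (0.070), edgeR (0.0044) and DESeq2 (0.013). The median log2 change of all genes was 0.15 with the first upper quartile and 0.10 with library size only, against -0.01 as deposited, and 77% of the calls rose with that upper quartile and 68.4% with library size only, against 45.8% as deposited.

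With 1 library left out, log2 changes ranged from -0.52 to -0.32 for Eif4e, -0.96 to -0.76 for Eif4e2, -0.81 to -0.41 for Eif4ebp1, -0.23 to -0.072 for Eif4ebp2, -0.024 to 0.046 for Eif4enif1 (-0.0072 without control 1), 0.45 to 0.60 for Gigyf1, -0.077 to 0.077 for Gigyf2 (0.013 without knockdown 2) and -0.35 to -0.17 for Larp1. Ratios to Eif4e ranged from -0.40 to 0.033 for Eif4ebp1. Between 1 and 5 of the 8 genes fell and between 0 and 1 rose. Over all genes 653 to 7724 were called; such a fit takes its spread from the remaining pair alone and assumes that the lone library varies like it, and the median absolute log2 difference was 0.0955 between the knockdown libraries and 0.198 between the controls. Without a variance trend 1932 genes were called, 1 of the 8 fell and 0 rose; DESeq2 called 2204. The cause of these shifts was not tested.

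The labels do not say whether same-numbered libraries were paired. Their deviations correlated at 0.0356 over 14890 genes, a check that rests on 1 pair of libraries in each group and cannot settle this. With the replicate block 4632 genes were called, in place of 3418, and 3 of the 8 genes fell and 1 rose. Control 2, with the fewest reads, limits the precision of the lower levels.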
